A study of Mus musculus with 21 samples.

Results

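RNA of mouse CD8 T cells activated for 3 days with beads, with no exogenous cytokine, was compared with RNA of the naive cells before activation. The comparison took every deposited cell of 2 libraries, the one titled OT3_noC (4457 cell barcodes) and the one titled OT0 (4777), which together were 9234 of the 106458 barcodes in the series. The cells were OT1 CD8 T cells, which carry a transgenic receptor for an ovalbumin peptide. The naive group was taken on day 0 and is labelled as untreated. The activated group had been given beads coated with antibodies to CD3 and CD28 on day 0 and was taken on day 3. The series holds 21 libraries, 1 for each condition. Apart from 1 library of day 5 without cytokine, the other activated libraries were cultured with IL-2, IL-15 or IL-2v, an IL-2 variant. Levels in the 3 libraries of day 3 with 5 IU/mL of a cytokine are given beside some results. No age, sex, strain name or number of animals is given in the labels used here.

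A naive CD8 T cell is small and quiescent, recirculates through lymph nodes and lives on IL-7 and weak contact with self peptides. Signals through the T cell receptor and CD28 drive it to grow, to switch to aerobic glycolysis, to divide in quick succession and to load granules with granzymes. Beads with both antibodies deliver these signals without antigen and without an antigen-presenting cell. Activated T cells can also make IL-2 and its high-affinity receptor, so a culture without added cytokine may still hold cytokine. No measure of cytokine in this culture was at hand.

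With 1 library a side there was no replicate, and no p-value or standard error between conditions was computed. After the filters 4777 naive cells and 4456 activated cells remained. They held 18468030 and 22249358 unique molecular identifiers (UMIs, tags that mark single captured RNA molecules), with medians of 3799 and 4551 per cell and 1431 and 1623 genes per cell. Mitochondrial genes gave 4.25% and 4.82% of UMIs. The 2 libraries shared 2 barcodes. Both libraries carried the markers of their label, given here over all UMIs of a cell: a UMI of Cd3d was seen in 93.4% and 98.3% of cells and one of Cd8b1 in 83.0% and 88.1%, naive first. Of the CD4 T cell markers, Cd4 was seen in 1.49% and 0.808%, Zbtb7b in 2.55% and 5.54% and Cd40lg in 3.06% and 0.471%, and the 3 erythroid genes of the table and Ncr1 were at 0 in both libraries. Of the other natural killer cell markers, Klrb1c was seen in 0.984% and 0%, Eomes in 7.66% and 3.59% and Tyrobp in 0.377% and 0.269%. Ighm, an immunoglobulin gene listed among the B cell markers, was seen in 68.1% and 89.2% of cells, while Cd79a and Cd79b, the signalling chains of the B cell receptor complex, were seen in 0.251% and 0.247% and in 5.71% and 6.46%, and Ighd in 6.93% and 5.81%. The extraction protocol describes a sort of CD44+ cells from tumours, which is at odds with the culture described for these libraries; no label says whether the naive cells were sorted.

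Levels are CPM, the UMIs of a gene summed over the cells of a library and scaled to the same total in each library, and differences are log2(CPM + 1) on day 3 minus naive, a scale that understates changes of low genes. In such sums, fewer cells expressing a gene and less RNA per cell cannot be told apart. A gene was compared where it reached 20 CPM in either library and is called higher or lower where the difference was at least 1, that is 2-fold. Of 6171 genes compared, 684 were higher on day 3 (11.1%) and 513 were lower (8.31%), 1197 or 19.4% in all. Counts of called members in the gene lists stand against these shares. The median difference of all 6171 genes was −0.11, and the central 80% ran from −0.93 to 1.09. In all, 858 genes reached 20 CPM in the naive library alone and 726 in the day 3 library alone. By this filter the 858 could not be called higher and the 726 could not be called lower. The higher and lower counts were 754 and 410 with trimmed-mean scaling, 647 and 624 with totals that leave out ribosomal protein and mitochondrial genes, 667 and 700 in cells with at most 5% mitochondrial UMIs, and 466 and 655 in cells with neither Mki67 nor Top2a UMIs, so which direction held more genes depended on these choices. The median absolute difference between the naive and the day 3 library was 0.50. Set against the day 3 libraries with 5 IU/mL of a cytokine, the library without one differed by medians of 0.12 (IL-15), 0.14 (IL-2) and 0.15 (IL-2v), and 24, 14 and 16 genes reached 2-fold.

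**Figure D1:**
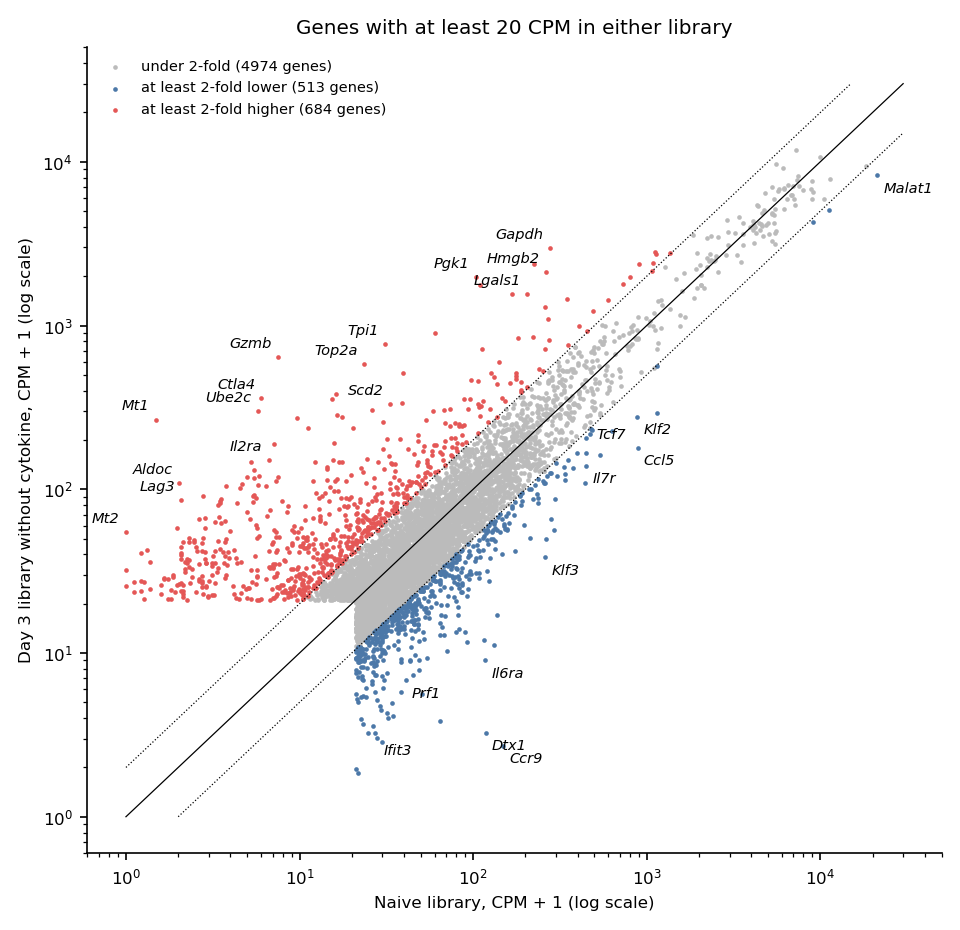
Each point is 1 of the 6171 genes with at least 20 CPM in either library, with CPM + 1 in the naive library on the x axis and in the day 3 library without cytokine on the y axis, both on log scales; dotted lines mark 2-fold. The 684 higher genes include Mt1 at 0.487 and 265 CPM and Gapdh at 276 and 2982 CPM, and the lower genes include Ccr9 at 148 and 1.71 CPM and Malat1 at 21271 and 8258 CPM.

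RNA of the receptor that received the signal stayed within 2-fold for each listed gene. None of the 18 genes of the T cell receptor complex and CD8 list was called, against 19.4% of all genes, and their median was −0.40. Cd8b1, the CD8 beta chain, stood at 1144 CPM in naive cells and 718 on day 3. Cd5 and Cd6, receptors that dampen T cell receptor signalling, were at 175 and 101 CPM and at 181 and 94.2 CPM. The constant region of the receptor's beta chain, Trbc2, was at 2051 and 2024 CPM. Cd28, the costimulatory receptor bound by the beads, went the other way, from 105 to 209 CPM, a difference of 0.99 that lay just under the limit. Against naive cells without a UMI of the chemokine gene Ccl5 its difference was 1.05, over the limit. Among cells with neither Mki67 nor Top2a UMIs 1 of the 18 was higher, against 7.86% of all genes.

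Of 15 activation surface proteins compared, 7 were higher and 0 lower, with a median of 0.82. The largest difference was that of Tnfrsf9 (4-1BB, a costimulatory receptor of the TNF receptor family), at 6.88 CPM in naive cells and 83.2 on day 3. Ly6a (Sca-1), a surface protein of activated and memory T cells, rose from 111 to 714 CPM (2.67) and its share of cells with a UMI from 14.6% to 66.6%. The transferrin receptor Tfrc, which brings in iron, rose from 18.0 to 77.6 CPM, and the costimulatory receptors Tnfrsf4 (OX40), Tnfrsf18 (GITR) and Icos rose by 2.06, 1.58 and 1.18. Cd44 rose from 25.1 to 57.5 CPM. Cd69, which marks the first hours after stimulation, was at 69.0 CPM in naive cells and 44.2 on day 3 and was not called. Cd40lg was below 20 CPM in both libraries, at 8.34 and 0.989 CPM. With 5 IU/mL of IL-2, Tnfrsf9 and Tnfrsf4 were at 172 and 84.3 CPM, and with IL-15 at 89.9 and 41.6 CPM.

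From here on, unless said otherwise, shares of cells are given after each cell was thinned at random to 2000 UMIs, which left out 306 naive and 212 day 3 cells with fewer, with exact Clopper-Pearson 95% intervals where shown. These intervals, and the exact Poisson intervals given for CPM, cover counting error only. RNA released from other cells can add UMIs to a cell. No cell type that lacks these genes was at hand in the day 3 library, so this background was not measured there.

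Inhibitory receptors were higher in 3 of 5 members compared, 60% against 11.1% of all genes, with a median of 1.52. The 3, Ctla4, Lag3 and Cd200, reached 20 CPM on day 3 alone and could not have been called lower. Another 5 members were below 20 CPM in both libraries and are not in that median. Ctla4, which competes with CD28 for its ligands, rose from 5.04 CPM (4.06 to 6.17) to 358 CPM (350 to 366), a difference of 5.89. A Ctla4 UMI was seen in 0.693% of naive cells (0.472 to 0.983) and in 47.9% of day 3 cells (46.4 to 49.4), or 1.26% and 70.4% without thinning. Lag3, a receptor for MHC class II, rose from 1.08 to 84.9 CPM (5.37) and Cd200 from 10.9 to 33.0 CPM. Other members stayed low: Pdcd1 (PD-1) was at 3.63 and 9.66 CPM, Tigit at 0.162 and 1.84 CPM, and Havcr2 (TIM-3) at 0.217 and 1.75 CPM. Foxp3, the factor of regulatory T cells, which also carry Ctla4 and Il2ra, was seen without thinning in 0.147% of naive and 0.0224% of day 3 cells. Ikzf2 (Helios), also listed as a marker of those cells, was at 76.7 and 147 CPM and was seen without thinning in 14.9% and 39.8%. The part of such cells in these receptors was not tested.

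**Figure D2:**
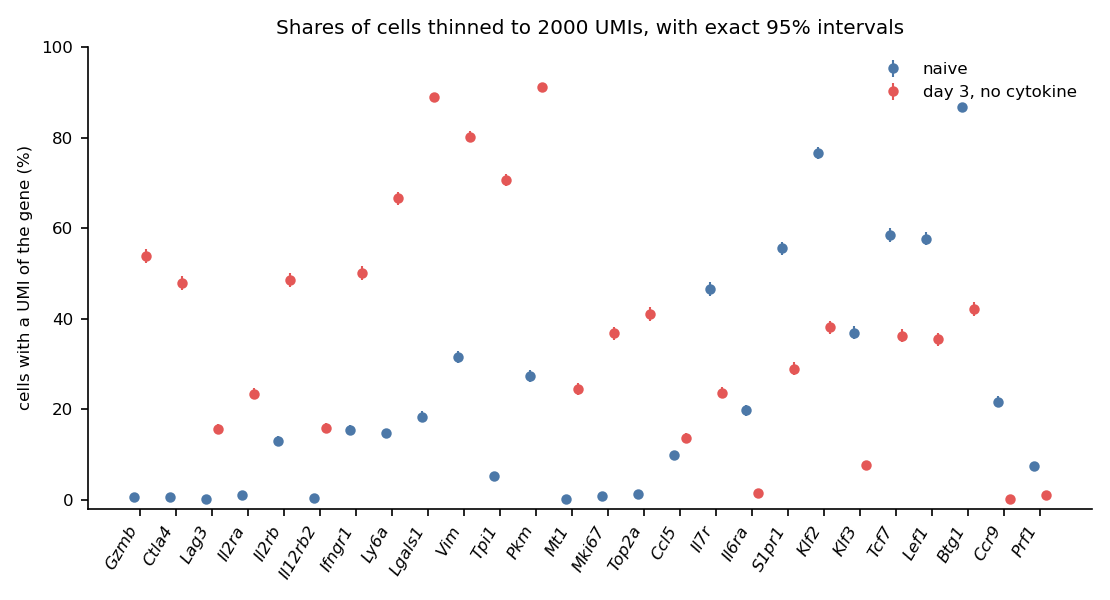
Points give the share of cells, thinned to 2000 UMIs each, with a UMI of the gene in the naive library (blue, 4471 cells) and the day 3 library (red, 4244 cells), and bars are exact 95% intervals that cover counting error only. Gzmb goes from 0.537% to 53.9% and Ctla4 from 0.693% to 47.9%, while Btg1 goes from 86.7% to 42.2% and Ccr9 from 21.7% to 0.259%.

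Of 18 cytokine receptors, 4 were higher (22.2%) and 6 lower (33.3%), against 11.1% and 8.31% of all genes, with a median of −0.69. The chains of the IL-2 receptor moved apart. Il2ra (CD25), the chain that gives high affinity, rose from 5.63 CPM (4.60 to 6.82) to 149 CPM (144 to 154), a difference of 4.50. Il2rb, the signalling chain shared with the IL-15 receptor, rose from 87.6 to 355 CPM (2.01). Il2rg, the common gamma chain, went from 311 to 190 CPM and was not called. A UMI of Il2ra was found in 23.4% of day 3 cells (22.2 to 24.7) and 0.984% of naive cells, and without thinning in 43.7% and 1.55%. With 5 IU/mL of IL-2, IL-2v and IL-15, Il2ra stood at 264, 235 and 197 CPM, against 149 CPM without cytokine, and Il2rb stood at 352, 415 and 342 CPM.

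Il12rb2, the inducible chain of the IL-12 receptor, rose from 1.79 to 89.6 CPM (5.02); its exons share 40.0% of their bases with Serbp1 on the opposite strand, so its level is uncertain. Ifngr1, a chain of the interferon gamma receptor, rose from 94.7 to 354 CPM, while the partner chain Ifngr2 fell from 21.6 to 7.91 CPM. Other receptors were lower. Il7r, the IL-7 receptor alpha chain needed for naive survival, fell from 446 to 137 CPM (−1.69) and from 46.5% to 23.6% of cells. Il6ra fell from 116 to 8.0 CPM (−3.70), and Il6st (gp130), with which it signals, from 132 to 42.0 CPM. Il27ra fell from 173 to 41.1 CPM, and Il18r1 from 63.1 to 30.1 CPM. Il18r1 was at 167 CPM in the naive cells with a UMI of the chemokine gene Ccl5 and at 48.3 CPM in the others, and against the others its difference of −0.66 was not called.

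Of 14 kinases, STAT proteins and feedback genes downstream of these receptors, 4 were higher, 28.6% against 11.1% of all genes, and 1 was lower. The 4 were Socs2, Pim1, Pim2 and the kinase Jak3. Stat5a and Stat5b, which carry the IL-2 signal, were at 33.4 and 26.7 CPM and at 55.4 and 45.6 CPM. Socs2, a feedback inhibitor, rose from 3.30 to 37.0 CPM (3.14), and the kinases Pim1 and Pim2 rose from 79.3 to 192 CPM and from 47.3 to 119 CPM. Cish, another feedback inhibitor, stayed below 20 CPM at 4.71 and 8.27 CPM, and was at 27.8 CPM with 5 IU/mL IL-2v. Socs3 fell from 44.6 to 14 CPM.

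Genes of the naive and quiescent state, mostly transcription factors, were lower in 6 of 19 members and higher in 0, with a median of −0.70, and the list went from 0.622% to 0.317% of all UMIs. Dtx1 (Deltex1, a ligase linked to T cell unresponsiveness) fell from 117 CPM (112 to 122) to 2.25 CPM (1.67 to 2.96), a difference of −5.19. Klf3 fell from 259 to 37.4 CPM (−2.76), and Klf2, which drives the homing gene S1pr1, from 883 to 277 CPM (−1.67). Btg1, an antiproliferative gene that speeds messenger RNA decay, fell from 1140 to 293 CPM and from 86.7% to 42.2% of cells. Zeb1 and Lef1 were the other lower members. Tcf7 (TCF-1), a factor of naive and stem-like memory T cells, was retained in part, at 471 CPM in naive cells and 256 on day 3, with a difference of −0.88 and shares of 58.5% and 36.2%. With 5 IU/mL of IL-2, IL-2v and IL-15, Tcf7 was at 188, 164 and 211 CPM. Bach2 and Foxo1, which restrain differentiation, were at 71.0 and 47.4 CPM and at 140 and 95 CPM. Myb and Themis, with differences of 0.81 and 0.62, were not called. The shift was spread over cells: the median cell held 12 UMIs of the list in the naive library and 6 on day 3, and 52.5% of day 3 cells lay below the 10th percentile of naive cells, 7 UMIs, as did 8.50% of naive cells.

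Activation and effector factors were higher in 10 of 21 members and lower in 5, with a median of 0.93. Irf4, which scales with T cell receptor signal strength, rose from 1.08 to 39.9 CPM (4.29), and Irf8 from 4.60 to 87.5 CPM (3.98). The AP-1 partner Batf rose from 26.6 to 60.4 CPM. Batf3 had 0 UMIs in naive cells and 24.8 CPM on day 3, at least 152-fold higher against a floor of 3 UMIs in the naive library. Bhlhe40 and Zbtb32 rose by 3.40 and 4.16, and the effector factors Prdm1 (Blimp-1) and Tbx21 (T-bet) by 2.62 and 1.35 to 24.5 and 20.9 CPM. Hif1a, which turns on glycolytic genes, rose from 67.0 to 304 CPM (2.16). Myc, at 57.2 and 104 CPM, was not called (0.85). The lower members were Egr1, from 27.0 to 4.13 CPM, Maf, Tox, Eomes and Relb. Tox, a factor of exhausted cells, fell from 93.6 to 29.3 CPM, and Eomes, a T-box factor of memory cells, from 26.8 to 7.96 CPM.

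Immediate early and ERK feedback genes showed no common direction: 2 of 12 were higher and 2 lower, 16.7% each against 11.1% and 8.31% of all genes, with a median of −0.08 that turned to 0.00095 with trimmed-mean scaling. Dusp5, an ERK phosphatase, rose from 8.77 to 53.8 CPM, and Jun from 9.96 to 32.2 CPM. Ier5 fell from 84.6 to 22.7 CPM and Nfkbia, the NF-kappaB inhibitor, from 149 to 58.2 CPM. Nr4a1 (Nur77), a factor that reports recent receptor signalling, stayed below 20 CPM, at 6.17 and 5.12 CPM.

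Of 9 homing and chemokine receptors, 2 were higher (22.2%) and 3 lower (33.3%), against 11.1% and 8.31% of all genes. Ccr9, a gut homing receptor of naive CD8 T cells, fell from 148 CPM (142 to 153) to 1.71 CPM (1.21 to 2.34), the lowest difference among genes with at least 100 CPM in either library (−5.78), and from 21.7% to 0.259% of cells. It was at 0.676 to 0.818 CPM in the 3 libraries with 5 IU/mL. Gpr183, an oxysterol receptor that places cells in lymphoid tissue, fell from 78.7 to 12.4 CPM, and S1pr1, which lets cells leave lymph nodes, from 448 to 165 CPM. Ccr7, a chemokine receptor for lymph node entry, was at 241 and 182 CPM and was not called. Cxcr3, a receptor for inflammatory chemokines, rose from 35.0 to 102 CPM. Among 7 integrin chains, Itgae (CD103) fell from 43.8 to 6.29 CPM and Itga4 from 196 to 59.4 CPM, and Itgb3 rose from 16.5 to 34.4 CPM.

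Of 11 cytotoxic granule genes, 2 were higher (18.2%) and 1 lower (9.09%), near the 11.1% and 8.31% of all genes, and the median was 0.05 (−0.012 with totals that leave out ribosomal protein and mitochondrial genes). Gzmb, the granzyme that starts apoptosis in target cells, rose from 6.50 CPM (5.39 to 7.77) to 642 CPM (632 to 653), a difference of 6.42. It was seen in 0.537% of naive and 53.9% of day 3 cells, or 1.09% and 70.9% without thinning, and was at 841, 871 and 766 CPM with 5 IU/mL of IL-2, IL-2v and IL-15. Serpinb6b, a serpin, rose from 15.5 to 115 CPM. Prf1 (perforin), which forms the pore through which granzymes enter, fell from 40.0 CPM (37.1 to 43.0) to 5.80 CPM (4.84 to 6.89), a difference of −2.59, and stayed at 7.91 to 9.17 CPM with 5 IU/mL of a cytokine. Nkg7 and Srgn, which take part in granule packing, were at 500 and 471 CPM and at 320 and 332 CPM. Gzma was at 32.5 and 59.7 CPM and was not called. Klrk1 (NKG2D), an activating receptor for stress ligands, rose from 18.8 to 121 CPM. The 4 natural killer cell markers summed to 31.4 CPM in the naive library and 8.54 CPM on day 3, with Ncr1 at 0 in both; their part in the granule genes was not tested.

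Messages of Ifng, Il2 and Tnf were low in both libraries. Of 23 cytokine and chemokine genes in the table, 5 reached 20 CPM in either library, as did 6171 of all 17516 genes. Of the 5, 0 were higher and 2, Tnfsf8 and Ccl5, were lower, 40% against 8.31% of all genes. Ifng had 30 UMIs in the naive library and 15 on day 3, or 1.62 and 0.674 CPM, and Il2 had 35 and 28 UMIs, or 1.90 and 1.26 CPM. Tnf was at 6.50 and 6.83 CPM. Ltb (lymphotoxin beta) was at 714 and 425 CPM, and Tgfb1 at 75.5 and 128 CPM.

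Ccl5, a chemokine of memory and effector CD8 T cells, fell from 885 to 177 CPM (−2.31) while the share of cells with a UMI was 9.82% in naive cells (8.96 to 10.7) and 13.6% on day 3 (12.6 to 14.7). In the naive library 91.9% of Ccl5 UMIs lay in the top 5% of cells, with 17.2 UMIs per thinned cell that had any, against 2.52 on day 3. The 569 naive cells with a Ccl5 UMI, a split made for an alternative and described with its values known, differed from the other 4208 in other genes too. Their level of Gzmb was 48.1 CPM against 0.557, of Gzma 237 against 3.22, of Ly6c2 787 against 122, of Tbx21 47.6 against 1.86 and of S100a6 875 against 76.4 CPM. Cd3d was at 867 and 890 CPM and Cd8b1 at 1023 and 1161 CPM. Of the natural killer cell markers, Ncr1 was at 0 in both, while Klrb1c was at 23.4 against 0.743 CPM and Eomes at 68.4 against 20.9 CPM. The part of natural killer cells in this split was not tested. Against naive cells without a Ccl5 UMI, the difference of Gzmb was 8.69, of Gzma 3.85 and of Cxcr3 2.49, those of Prf1 and Eomes remained negative at −2.36 and −1.29, and that of Ccl5 was 7.48, since the split removes that gene.

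Genes of cell division rose together. A UMI of Mki67 (Ki-67) or Top2a (topoisomerase II alpha), genes expressed in dividing cells, was seen in 1.70% of naive cells (76 of 4471; 1.34 to 2.12) and 51.2% of day 3 cells (2172 of 4244; 49.7 to 52.7). Without thinning the shares were 3.01% and 59.96%. Of 37 DNA replication genes compared, 36 were higher and 0 lower, with a median of 2.21, and 37 of 38 genes of G2 and mitosis were higher and 0 lower, with a median of 4.24, against 11.1% higher among all genes. The mitosis list went from 0.0251% to 0.427% of UMIs. Its 40 genes summed to 251 CPM in naive cells, so most of those compared reached 20 CPM on day 3 alone. Such genes, and replication genes that entered in the same way, could not have been called lower. A median cell held 0 UMIs of that list in the naive library and 4 on day 3. In all, 68.6% of day 3 cells held at least 3 UMIs of either list, as did 14.1% of naive cells, most of them from replication genes.

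Among replication genes, Rrm2, the regulated subunit of ribonucleotide reductase, rose from 6.50 to 117 CPM (3.98). Uhrf1, which brings the maintenance DNA methyltransferase to new DNA, rose from 5.41 to 104 CPM (4.04), and Mcm10 from 0.379 to 23.7 CPM (4.16). The subunits of the replicative helicase rose by less, from Mcm4 at 26.3 and 65.4 CPM to Mcm5 at 16.5 and 146 CPM. Gins4, at 22.7 and 39.4 CPM, was the member not called (0.77). Among mitotic genes, Ube2c, the conjugating enzyme of the anaphase-promoting complex, rose from 4.76 CPM (3.82 to 5.87) to 299 CPM (292 to 307), a difference of 5.70; 22.8% of its exonic bases overlap Tnnc2 on the opposite strand. Birc5 (survivin) rose from 8.72 to 273 CPM, Top2a from 22.4 to 581 CPM, Mki67 from 15.2 to 379 CPM and Cdk1 from 3.95 to 118 CPM. Pttg1 (securin), at 41.9 and 40.0 CPM, was the member not called (−0.07). Hmgb2, a chromatin protein of dividing cells, was among the 10 largest gains in CPM, from 263 to 2124.

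Promoters of the 2 lists held the textbook motifs of their regulators in larger shares than promoters at large. They were read from RefSeq (GRCm38.p6) as 300 base windows, 250 before to 50 after the start of each gene, on both strands; 12468 of the 17516 gene symbols had one. The E2F site TTTNNCGC was in 14 of 31 replication gene promoters, 45.2%, against 5.27% of all 27025 promoters and 10.3% of the 4979 promoters of genes compared here. The cell cycle homology region TTTGAA was in 25 of 34 mitotic gene promoters, 73.5% against 18.1% and 12.1%, and CCAAT was in 24 of the same 34, 70.6% against 37.9% and 39.1%. The sterol response element core TCACNCCAC was in 1 of 17 cholesterol synthesis promoters (5.88%, against 1.22% of all promoters). The amino acid response element TGATGNAA was in 5 of 23 promoters of its list (21.7% against 4.06%). The E-box CACGTG was in 5 of 30 of ribosome biogenesis (16.7% against 7.24%, and 11.2% of those of genes compared), and the STAT5 site TTCNNNGAA in 2 of 14 of the JAK and STAT list (14.3% against 8.47%). Of these matches, 1 lay in a promoter of a gene that was higher on day 3. For the E2F site and the cell cycle homology region, the promoter of the member with the highest log2 difference that held the motif is shown. Each runs from 250 bases before to 30 after the start, with the matched letters in capitals. They show an E2F match 56 bases before the start of Uhrf1 (chr17:56303087-56303366, plus strand), and a match to the cell cycle homology region, on the minus strand, 29 bases before the start of Ube2c (chr2:164769679-164769958, plus strand).
Uhrf1: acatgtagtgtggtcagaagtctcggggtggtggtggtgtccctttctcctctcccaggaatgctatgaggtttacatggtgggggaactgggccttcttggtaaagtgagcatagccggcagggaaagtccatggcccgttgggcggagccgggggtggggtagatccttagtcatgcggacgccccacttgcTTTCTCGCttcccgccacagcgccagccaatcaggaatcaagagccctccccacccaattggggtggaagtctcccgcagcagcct
Ube2c: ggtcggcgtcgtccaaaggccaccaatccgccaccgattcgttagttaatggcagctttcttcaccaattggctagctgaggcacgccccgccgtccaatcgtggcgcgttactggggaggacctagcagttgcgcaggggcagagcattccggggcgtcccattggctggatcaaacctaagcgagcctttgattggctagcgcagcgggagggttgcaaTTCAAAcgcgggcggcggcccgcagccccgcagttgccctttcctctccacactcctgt
A match describes these letters only and does not show that a factor was bound.

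Regulators of the cycle were higher in 6 of 19 members and lower in 1. E2f1, E2f2, E2f3 and E2f8 were among the 6, with E2f2 rising from 7.42 to 72.0 CPM (3.12), as were Cdk2 and Ccne1 (cyclin E1), which drive entry into S phase. Ccnd2 (cyclin D2), which answers to growth signals, fell from 485 to 229 CPM, and stood at 285, 359 and 375 CPM with 5 IU/mL of IL-2, IL-2v and IL-15. Ccnd3 was at 209 and 208 CPM and Cdk6 at 36.7 and 37.1 CPM. Cdkn1a (p21) was below 20 CPM, at 0.108 and 16.7 CPM. Of 17 histone genes compared, 15 were higher, with a median of 2.27. Hist1h1b, a linker histone, rose from 16.5 to 276 CPM (3.99). The core histone Hist1h2ap rose from 109 to 1758 CPM, but 93.4% of its 31-base words occur in other genes, which makes its level uncertain. A chromatin list of DNA methylation and Polycomb genes also held Hmgb2, the histone chaperone Asf1b and the histone variants H2afx and H2afz. Of its members 7 of 14 were higher, these 4, the heterochromatin protein Cbx5, Dnmt1 (maintenance methyltransferase) from 58.3 to 186 CPM and Ezh2 (the Polycomb methyltransferase) from 30.9 to 200 CPM. Dnmt3a and Ezh1, at 45.3 and 32.2 CPM and at 37.6 and 25.8 CPM, were not called, and Tet3 fell from 94.4 to 38.9 CPM.

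**Figure D3:**
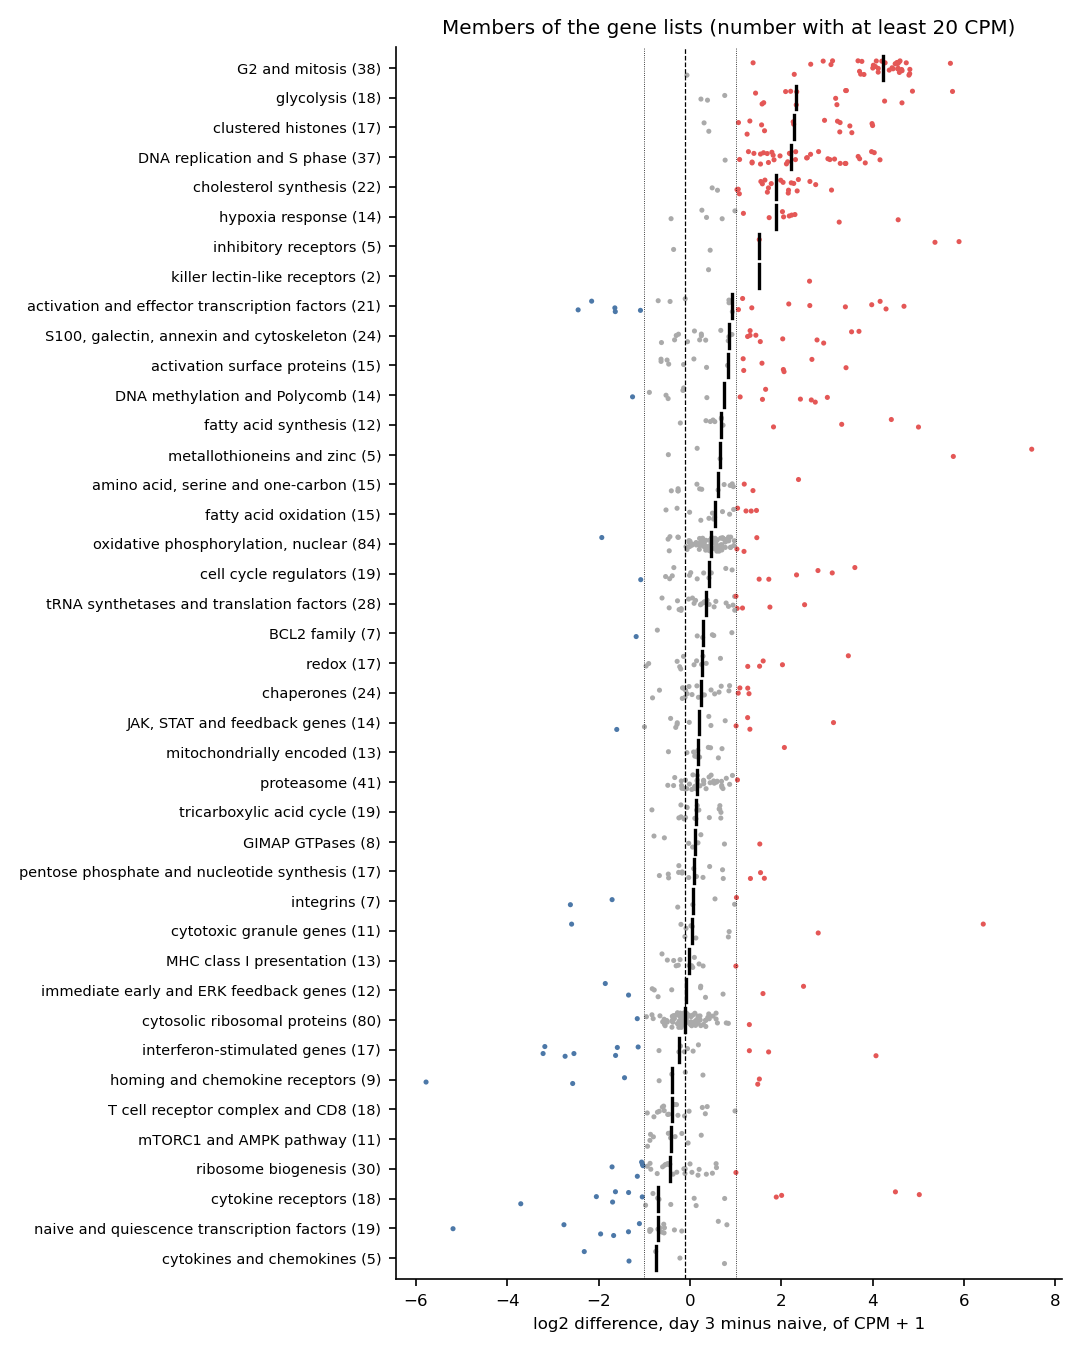
Each point is a gene of a list with at least 20 CPM in either library, placed by its log2 difference between day 3 and naive; black bars are list medians, the dashed line is the median of all genes (−0.11) and dotted lines mark 2-fold. G2 and mitosis (median 4.24) and glycolysis (2.33) stand at the top, and naive and quiescence transcription factors (−0.70) and cytokine receptors (−0.69) near the bottom.

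Cells with neither Mki67 nor Top2a UMIs were also compared between the libraries. In these cells 466 of 5925 genes were higher (7.86%) and 655 lower (11.1%), with a median of −0.25. Mki67 and Top2a are at 0 in these cells by construction. Both are members of the mitosis list. Lower medians of that list, and of lists that vary with it, follow in part from the choice of cells and are a description only. The absence of a UMI does not mean the absence of division, since these day 3 cells had a median of 3780.5 UMIs against 5372.5 in the cells with one. List medians were taken over the same members as in all cells. Glycolysis had a median of 2.27 in them, against 2.33 in all cells, hypoxia genes 1.74 against 1.88 and inhibitory receptors 1.89 against 1.52. Cholesterol synthesis had a median of 1.33 against 1.88, DNA replication 0.82 against 2.21 and histones 0.28 against 2.27. The chromatin list turned from 0.74 to −0.28. Within the day 3 library, glycolysis made up 1.30% of UMIs in cells with and 1.39% in cells without a UMI of either Mki67 or Top2a, and a Gzmb UMI was seen in 52.7% and 55.1% of thinned cells, a Ctla4 UMI in 45.6% and 50.3% and an Il2ra UMI in 24.8% and 22%. Ccr7 differed more, at 22.6% and 35.7% (intervals 20.8 to 24.4 and 33.6 to 37.8).

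**Figure D4:**
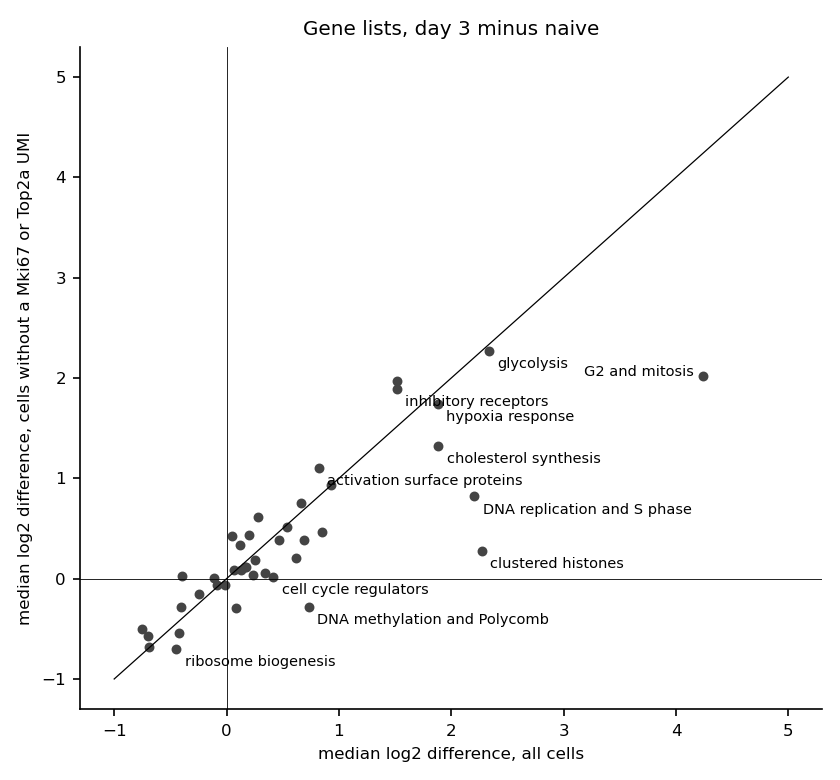
Each point is 1 of the gene lists, with the median log2 difference between day 3 and naive in all cells on the x axis and in cells that had neither a Mki67 nor a Top2a UMI on the y axis; the diagonal marks equal values. Glycolysis lies close to the diagonal (2.33 and 2.27), while G2 and mitosis (4.24 and 2.02), clustered histones (2.27 and 0.28) and DNA methylation and Polycomb (0.74 and −0.28) lie below it. Mki67 and Top2a are members of the mitosis list, so the place of that list, and of lists that vary with it, follows in part from the choice of cells.

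Glycolytic genes rose, and their summed UMIs were up in nearly every cell. Of 18 glycolytic genes compared, 15 were higher and 0 lower, with a median of 2.33, and the list went from 0.162% to 1.33% of UMIs. The median cell held 3 UMIs of the list in the naive library and 25 on day 3. In all, 99.0% of day 3 cells lay above the 90th percentile of naive cells, 6 UMIs, as did 5.57% of naive cells. In the order of the pathway, Hk2 (hexokinase 2) rose from 2.0 to 26.4 CPM, Gpi1 from 182 to 841 CPM, Aldoa from 223 to 2380 CPM, Tpi1 (triosephosphate isomerase) from 29.9 to 771 CPM and Gapdh from 276 CPM (269 to 284) to 2982 CPM (2959 to 3004). Pkm (pyruvate kinase) rose from 166 to 1555 CPM and Ldha (lactate dehydrogenase A) from 257 to 1295 CPM. Pgk1 rose from 102 to 1984 CPM, with 54.7% of its 31-base words shared, mostly with Pgk1-rs7. Aldoc, an aldolase known best from brain, rose from 1.03 to 108 CPM (5.75), and Slc16a3, the lactate exporter MCT4, from 0.975 to 56.9 CPM (4.87). The members not called were Hk1, the glucose transporter Slc2a1, at 13.2 and 23.1 CPM, and Slc16a1. The transporter Slc2a3 rose from 22.3 to 62.1 CPM.

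Hypoxia response genes were higher in 9 of 14 members and lower in 0, with a median of 1.88. Bnip3, a mitophagy receptor, rose from 2.38 to 78.8 CPM (4.56), with 22.3% of its exonic bases overlapping Gm45507 on the opposite strand. Egln3, a prolyl hydroxylase that marks HIF-1 alpha for decay, rose from 2.11 to 29.0 CPM (3.27), and Ero1l and Mif from 18.2 to 85.9 CPM and from 349 to 1448 CPM. Pdk1, a pyruvate dehydrogenase kinase, was at 153 and 115 CPM and was not called. These levels varied among the day 3 libraries: Bnip3 stood at 142 and 164 CPM with 5 IU/mL of IL-2 and IL-2v and at 35.6 CPM with IL-15, and Slc16a3 at 89.4, 111 and 20.3 CPM. Oxygen in the cultures is not given in the labels. The hypoxia response element core ACGTG was in 10 of 18 glycolytic promoters (55.6%) and 12 of 18 promoters of the hypoxia list (66.7%), against 19.7% of all promoters and 28.0% of those of genes compared. Among promoters of genes called higher, it was in 7 of 14 for glycolysis and 7 of 7 for the hypoxia list. The promoter of Bnip3 is shown, 250 bases before to 30 after the start (chr7:138909477-138909756, minus strand, read along the gene), where 2 matches, 1 on each strand, overlap from 108 bases before the start.
Bnip3: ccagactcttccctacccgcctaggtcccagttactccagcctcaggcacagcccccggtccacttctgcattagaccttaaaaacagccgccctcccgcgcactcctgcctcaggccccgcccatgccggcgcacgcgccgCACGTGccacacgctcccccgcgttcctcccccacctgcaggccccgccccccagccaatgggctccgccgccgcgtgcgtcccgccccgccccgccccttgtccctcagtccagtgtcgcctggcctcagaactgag

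Mitochondrial genes differed by less. Of 84 nuclear genes of oxidative phosphorylation, 3 were called higher and 1 lower, shares under those of all genes, while their median was 0.46, with members from −1.93 to 1.46, against −0.11 for all genes, and the list went from 1.67% to 2.31% of UMIs. The median cell held 33 UMIs of it in naive and 44 in day 3 cells, and 52.1% of day 3 cells lay above the 90th percentile of naive cells. Ndufv3 rose from 176 to 488 CPM and the ATP synthase subunit Atp5d from 238 to 543 CPM, while the complex I assembly factor Ndufaf4 fell from 63.9 to 16.0 CPM. None of 19 genes of the tricarboxylic acid cycle was called (median 0.13), with Cs (citrate synthase) at 66.9 and 108 CPM. Of 13 mitochondrially encoded genes, mt-Nd6 alone was called, from 33.0 to 142 CPM, and their median was 0.17. Several mitochondrial genes share long stretches with nuclear copies, and mt-Co1, with the largest gain in CPM of any gene, from 7287 to 11860, shares 63.9% of its words. The gene mt-Atp6, among the 10 largest losses in CPM, from 9058 to 6537 (−0.47, not called), shares 99.5%. Fatty acid oxidation had 4 of 15 higher, 26.7% against 11.1% of all genes: Decr1, Acadl, Acads and Eci2.

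**Figure D5:**
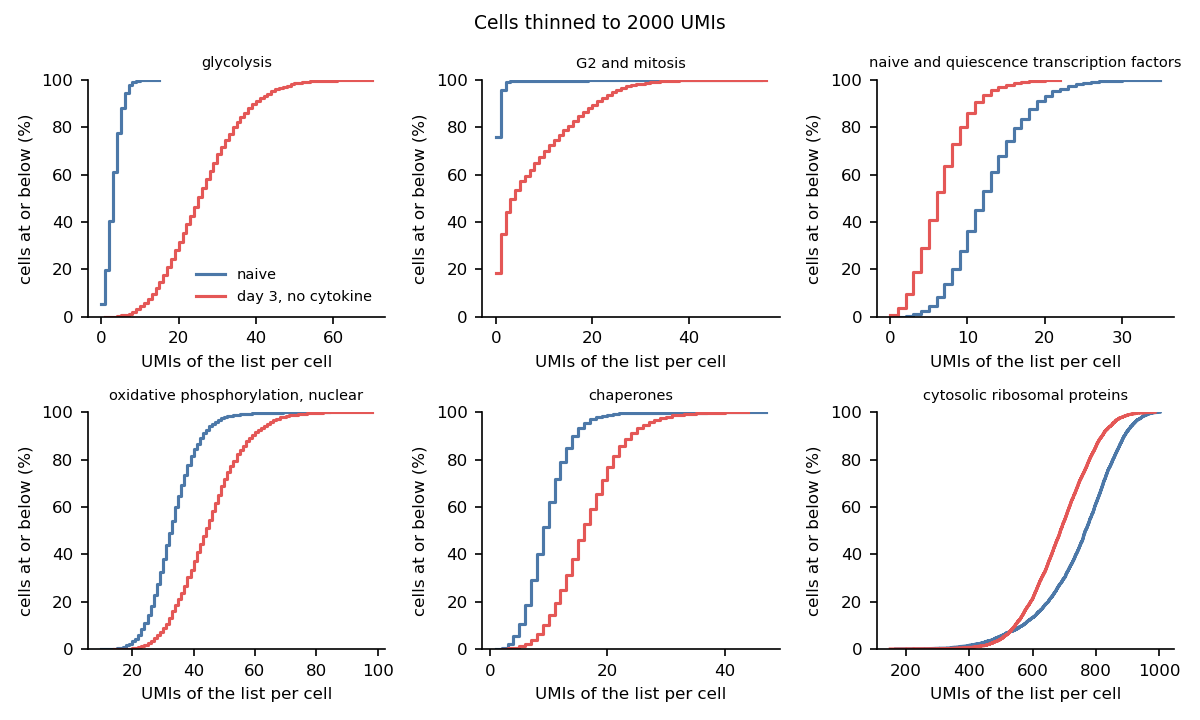
Curves give the percent of cells at or below each number of UMIs of a gene list, in naive (blue) and day 3 (red) cells thinned to 2000 UMIs each. Medians went from 3 to 25 UMIs for glycolysis, from 0 to 4 for G2 and mitosis, from 12 to 6 for naive and quiescence transcription factors, from 33 to 44 for oxidative phosphorylation, from 9 to 16 for chaperones and from 766 to 688 for cytosolic ribosomal proteins.

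Genes of sterol synthesis, which supplies membranes, rose almost without exception. Of 22 cholesterol synthesis genes, 20 were higher and 0 lower, with a median of 1.88. Fdps, which makes farnesyl diphosphate, rose from 38.1 to 334 CPM (3.10), Hmgcs1 from 31.8 to 158 CPM and Sqle (squalene epoxidase) from 9.85 to 49.5 CPM. Hmgcs1 was at 236, 275 and 256 CPM with 5 IU/mL of IL-2, IL-2v and IL-15. The cholesterol list was 0.191% of UMIs in day 3 cells with a Mki67 or Top2a UMI and 0.129% in the others. Of 12 fatty acid synthesis genes, 4 were higher, 33.3% against 11.1% of all genes. Among cells with neither Mki67 nor Top2a UMIs 1 of 9 was higher, against 7.86% of all genes. Scd2, a desaturase, rose from 32.1 to 330 CPM (3.32), and Scd1 had 0 UMIs in naive cells and 31.1 CPM on day 3, at least 191-fold higher against the floor of 3 UMIs. Fads2 had 2 UMIs in naive cells, 0.108 CPM, and 22.6 CPM on day 3. Fasn (fatty acid synthase) and Acly were not called, at 34.4 and 44.1 CPM and at 46.8 and 78 CPM.

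Amino acid and one-carbon genes were higher in 3 of 15 members, 20% against 11.1% of all genes, and in 1 of 14 among cells with neither Mki67 nor Top2a UMIs, 7.14% against 7.86%. The 3 were Psat1 (from 12.2 to 67.5 CPM), Phgdh and Mthfd2, enzymes of serine synthesis and mitochondrial folate metabolism. Of the 31-base words of Phgdh, 55.8% are shared with another gene. Slc7a5, the large neutral amino acid transporter, was at 12.6 and 25.2 CPM (0.95) and stood at 38.7, 70.7 and 57.1 CPM with 5 IU/mL of IL-2, IL-2v and IL-15. Asns (asparagine synthetase) had 1 UMI in naive cells and 17.9 CPM on day 3. In nucleotide synthesis and the pentose phosphate pathway 3 of 17 were higher, 17.6% against 11.1% of all genes: Tkt from 106 to 329 CPM, Paics and Impdh2. The list's median of 0.08 turned to −0.15 in cells with at most 5% mitochondrial UMIs and to −0.29 in cells with neither Mki67 nor Top2a UMIs, where 3 of 16 were higher and 2 lower.

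The translation machinery split. The 80 cytosolic ribosomal protein genes compared had a median of −0.11, that of all genes, and went from 37.3% to 34.1% of UMIs. Rps27 fell from 11284 to 5073 CPM and Rps27l, its paralogue, rose from 124 to 307 CPM. Ribosome biogenesis genes were lower in 5 of 30 members, 16.7% against 8.31% of all genes, and higher in 1, with a median of −0.45. In cells with neither Mki67 nor Top2a UMIs the median was −0.70 and 9 of 30 were lower, against 11.1% of all genes. The list's share of UMIs in all cells went from 0.364% to 0.443%. Utp20 fell from 26.6 to 7.46 CPM, Ddx21, a nucleolar helicase, from 208 to 99.4 CPM, and Gnl3 (nucleostemin) from 92.9 to 45.1 CPM. Npm1 (nucleophosmin) rose from 1076 to 2164 CPM (1.01), and Ncl (nucleolin) was at 495 and 741 CPM. Ddx21 was at 123, 182 and 222 CPM with 5 IU/mL of IL-2, IL-2v and IL-15. Of 28 tRNA synthetases and translation factors, 5 were higher, 17.9% against 11.1% of all genes, among them Eif4ebp1, a translation repressor, from 9.15 to 56.9 CPM and the elongation factor Eef2 from 1084 to 2408 CPM. Chaperones were higher in 4 of 24 members, 16.7% against 11.1% of all genes. Among cells with neither Mki67 nor Top2a UMIs 2 of the 24 were higher and 1 lower, against 7.86% and 11.1% of all genes. The 4 were Hspa8, from 804 to 1972 CPM, Hsp90ab1, from 1130 to 2720 CPM, Hsp90aa1 and Tcp1. The stress-induced Hspa1a had 4 UMIs in naive cells and 3 on day 3. Of 41 proteasome genes only Psmb9, an immunoproteasome subunit, was called, from 189 to 389 CPM. The mTORC1 and AMPK list had 0 of 11 called, with a median of −0.43.

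Metallothioneins, small proteins that bind zinc and copper and are induced by these metals, had the largest difference of the comparison. Mt1 rose from 9 UMIs, 0.487 CPM (0.223 to 0.925), to 265 CPM (259 to 272), a difference of 7.48. Mt2 had 0 UMIs in the naive library and 53.5 CPM on day 3, at least 329-fold higher against the floor of 3 UMIs; 73.5% of its exonic bases overlap Gm45774 on the opposite strand. A UMI of either gene was seen in 26.8% of day 3 cells (25.5 to 28.2) and 0.0895% of naive cells. Mt1 was not even over cells, with 46.9% of its UMIs in the top 5% of day 3 cells. Such a figure also rises where fewer cells hold a gene, and Mt1 alone was seen in 24.5% of cells. It was 27.4% for Gzmb, seen in 53.9% of cells, and 37.9% for Il2ra, seen in 23.4%. Mt1 stood at 385, 167 and 213 CPM with 5 IU/mL of IL-2, IL-2v and IL-15. Zinc transporters moved less: Slc39a6 was at 14.7 and 23.8 CPM, and the zinc exporter Slc30a1 was below 20 CPM, at 9.10 and 3.69 CPM. The core of the metal response element, TGCNCNC, was in 9 of 9 promoters of this list, against 50.4% of all promoters and 59.4% of those of genes compared, with 2.56 matches a promoter against 0.805. Of these 9 promoters, 2 are of genes that were higher on day 3, and those of genes not called held the motif as well. The Mt1 promoter (chr8:94178839-94179118, plus strand) held 3 matches, from 23 bases before the start and from positions 3 and 21 after it.
Mt1: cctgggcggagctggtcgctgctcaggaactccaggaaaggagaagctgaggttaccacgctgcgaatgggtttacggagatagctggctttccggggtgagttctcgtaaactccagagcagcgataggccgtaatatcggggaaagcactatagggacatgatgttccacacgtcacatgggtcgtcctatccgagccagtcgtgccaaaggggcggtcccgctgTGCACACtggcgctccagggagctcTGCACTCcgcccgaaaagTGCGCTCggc

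Redox genes were higher in 5 of 17 members, 29.4% against 11.1% of all genes. Prdx4, a peroxiredoxin of the endoplasmic reticulum, rose from 5.74 to 73.6 CPM (3.47), Txn1 (thioredoxin) from 125 to 514 CPM, and Prdx2, Sod1 and Gpx4 by 1.6, 1.53 and 1.27.

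Of 17 interferon-stimulated genes, 7 were lower, 41.2% against 8.31% of all genes, and 3 were higher, 17.6% against 11.1%. The lower ones included genes of the antiviral type I response: Isg15 fell from 53.2 CPM (49.9 to 56.6) to 8.31 CPM (7.16 to 9.60), Ifit1 from 37.6 to 4.81 CPM, Rtp4 from 49.9 to 4.63 CPM and Irf7 from 52.2 to 16.7 CPM. Ifit3 fell from 27.1 to 2.02 CPM and shares 61.8% of its words with other genes. In naive cells an Isg15 UMI was seen in 7.11% of cells. The higher ones were Igtp and Gbp2, GTPases known as interferon gamma targets, from 72.2 to 241 CPM and from 42.0 to 105 CPM, and Ifitm2, which shares 55.5% of its words with other genes. Tap1, the peptide transporter of antigen presentation, rose from 136 to 275 CPM, the only one of 13 MHC class I genes called. H2-K1 was at 2046 and 1760 CPM and B2m at 1928 and 2215 CPM. The median of that list, −0.02, turned to 0.07 with trimmed-mean scaling.

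Among survival genes, Bcl2 fell from 191 CPM (185 to 198) to 84.0 CPM (80.2 to 87.9), the only 1 of 7 members of its family called. Its antagonist Bcl2l11 (BIM) was at 34.5 and 42.1 CPM, Mcl1 at 235 and 143 CPM, and Bcl2l1 (BCL-XL) below 20 CPM at 5.74 and 14.3 CPM. Bcl2 was at 133, 452 and 139 CPM with 5 IU/mL of IL-2, IL-2v and IL-15. Of 8 GIMAP GTPases, which support lymphocyte survival, Gimap7 rose from 110 to 319 CPM and the others were not called.

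Genes of shape and movement were higher in 10 of 24 members and lower in 0, with a median of 0.85. Lgals1 (galectin-1) rose from 204 to 1557 CPM (2.93) and from 18.4% to 88.9% of cells. The intermediate filament gene Vim rose from 268 to 1099 CPM, Anxa2 from 25.1 to 302 CPM (3.54) and Lgals3 from 11.9 to 87.5 CPM. Stmn1 (stathmin), a microtubule destabiliser of dividing cells, rose from 38.6 to 514 CPM (3.70), and the tubulin Tubb5 from 599 to 1439 CPM. Actb was at 5745 and 6832 CPM, while Actg1 rose from 1120 to 2795 CPM. S100a6 and S100a10 rose by 1.54 and 1.32, and S100a4 was at 97.0 and 62.6 CPM.

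Further genes came up by size of change alone. Among genes with at least 100 CPM in either library, those that fell most outside the lists were Rflnb, which regulates filamin, from 131 to 10.2 CPM (−3.57), Hsd11b1, which reactivates glucocorticoids, from 114 to 10.9 CPM (−3.27), and Igfbp4, an insulin-like growth factor binding protein, from 137 to 16.1 CPM (−3.01). Txk, a TEC family kinase of the T cell receptor pathway, fell from 293 to 55.3 CPM (−2.38). Actn1, Acp5 and Arl4c fell by 2.09, 2.06 and 2.02 on the log2 scale, as did the uncharacterised Gm2682 and B930036N10Rik, by 2.40 and 2.17. Among cells with neither Mki67 nor Top2a UMIs, the rule added Impa2 (inositol monophosphatase 2), which rose from 10.2 to 236 CPM in all cells; 23.6% of its exonic bases overlap a gene on the opposite strand. Ctla2b, from 6.34 to 111 CPM, shares 76.1% of its words with another gene and is uncertain. In CPM the largest loss was that of Malat1, a nuclear noncoding RNA, from 21271 to 8258 (−1.36), followed by Rps29 and Rps27, and then by Tpt1, a translationally controlled protein, from 9113 to 4261 CPM.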

How the data were processed

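The deposited tables hold raw UMI counts, 1 per gene symbol and cell, as made by the authors; every value was a whole number. Cell Ranger, Seurat 4.0.1 and 3.0.2 and the build mm10 are named in the submitters' processing notes, without their roles. Cells under 1000 UMIs, under 500 genes or over 10% mitochondrial UMIs were dropped. As deposited, the barcodes already held 1010 to 12644 UMIs in the naive library and 1016 to 13353 in the day 3 library. Cells outside these ranges were not at hand. No doublet caller was run; leaving out cells above 2 times the median UMIs served as an alternative. UMIs were summed per library and scaled to CPM. Gene names were matched to GENCODE vM21 (GRCm38, the same assembly as mm10), where genes sharing at least 50% of their 31-base words with others were called uncertain.

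Groups came from the titles. Genes were named by rule: the 15 highest and 15 lowest differences where either library had 100 CPM or more, the 10 largest gains and losses in CPM, the 10 highest and lowest in cells with neither Mki67 nor Top2a UMIs, and members of 41 gene lists. Values of some list members are not reported here. The comparison, lists and motifs were chosen with earlier results of these data known. Alternatives were other cell filters, TMM scaling (edgeR 4.0.16), other totals, CPM averaged over cells, 10 as pseudocount, no filter on low genes, cells with neither Mki67 nor Top2a UMIs, naive cells without a Ccl5 UMI and other thinning. Python 3.11.15, numpy 2.4.6, pandas 2.3.3 and scipy 1.17.1 were used.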

Additional observations from a re-analysis of the deposited data

How the results depend on the processing

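There was 1 library a side, so differences between conditions, culture, day of handling and library cannot be told apart, and no paired analysis was possible because each group had 1 library. Of 594 values of 54 named genes over 11 alternatives, 591 kept their sign and 47 moved by over 1.5-fold. The exceptions came from how cells were chosen: Mki67 and Top2a were at 0 in cells chosen to lack them, and Ccl5 was at 7.48 against naive cells without a Ccl5 UMI. Without an expression filter 1579 genes were higher and 1042 lower, and with a pseudocount of 10 the lower genes numbered 260. The median of all genes was −0.25 in cells with neither Mki67 nor Top2a UMIs. Cycling cells were 39.8% on day 3 and 1.17% naive when thinned to 1000 UMIs, 59.96% and 3.01% without thinning, and 55.7% and 1.01% by at least 3 mitotic UMIs. Of 451 list medians, 8 moved by over 1.5-fold and 14 changed sign. They were integrins (−0.10), pentose phosphate and nucleotide synthesis (−0.15) and mitochondrially encoded genes (−0.11) at most 5% mitochondrial UMIs, a filter on the level of that last list that left out 2004 day 3 and 863 naive cells; immediate early genes (0.00095) and MHC class I (0.067) with TMM; integrins (−0.00090) and cytotoxic granule genes (−0.012) with other totals; MHC class I (0.0036) without cells above 2 times the median UMIs; pentose phosphate and nucleotide synthesis (−0.017) and MHC class I (0.014) with CPM averaged over cells; and homing receptors (0.028), DNA methylation and Polycomb (−0.28), pentose phosphate and nucleotide synthesis (−0.29) and ribosomal proteins (0.0026) in cells with neither Mki67 nor Top2a UMIs. For the others the cause was not tested. Leaving out 286 day 3 and 124 naive cells above 2 times the median UMIs raised the difference of Ube2c to 6.78.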

Other observations

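In the day 3 library, a Gzmb UMI was in 59.8% of 994 thinned cells with an Il2ra UMI (56.6 to 62.8) and in 52.1% of the 3250 cells without one (50.4 to 53.8). A UMI of Mt1 or Mt2 was in 25.5% of cells with a Mki67 or Top2a UMI (23.6 to 27.3) and in 28.2% of the others (26.3 to 30.2), and a difference between these shares was not tested. These are shares of cells of 1 library, and depth before thinning differed between the groups.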
